A study of Homo sapiens with 3 samples.

Results

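Neurotrophins are secreted growth factors that neurons use to survive, extend processes and adjust their synapses. They are made as precursors, and the cut, mature forms act through Trk receptor tyrosine kinases, while the p75 receptor binds all of them and, together with VPS10-domain receptors of the sortilin family, also binds the uncut precursors. In forebrain neurons the pairing of BDNF with its receptor TrkB is known for its role in plasticity at glutamatergic synapses. The 8 genes described here were 3 ligands (BDNF, NTF3 and NTF4), the Trk receptor genes NTRK2 (TrkB) and NTRK3 (TrkC), the p75 receptor gene NGFR, and the VPS10 receptor genes SORT1 and SORCS2. They were taken by gene name, and all 8 were among the 78932 genes of the deposited tables.

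RNA had been measured in 3 untreated samples of iCell GlutaNeurons (iGluta), a commercial line of human neurons differentiated from induced pluripotent stem cells, sold by FujiFilm Cellular Dynamics as glutamatergic neurons. Their genotype was labelled WT, and the cells had been kept for 3 weeks in culture. There was 1 group and no other condition, so levels were compared with a fixed bar of 1 TPM (each gene's share of the transcripts in a library, corrected for length and scaled to a fixed total) and with each other within a library. The labels call the samples triplicates without stating whether each was its own culture. Errors and p-values here reflect only how far these samples differ, and that difference may be technical.

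Replicates 1, 2 and 3 were sequenced to 41079348, 60092991 and 34732725 estimated counts. All 8 pan-neuronal marker genes were above 1 TPM, led by STMN2 (2449 ± 326.9 TPM, SD, n = 3), a microtubule regulator of growing neurites. Among all 17804 protein-coding genes with any TPM, 71.2% were above 1 TPM (limma, adjusted p under 0.05). Of the marker genes of other cells, 3 of 8 astrocyte, 1 of 6 oligodendrocyte, 2 of 6 Schwann and neural crest, 3 of 8 mesenchymal, 3 of 6 progenitor and none of 5 microglial or 5 endothelial genes were above it (limma, adjusted p under 0.05; 0 also at an unadjusted p under 0.05 for the last pair of lists). The highest of each list were SLC1A2 (61.6 ± 17.1 TPM), MBP (42.7 ± 5.57), ERBB3 (2.36 ± 0.959), TAGLN (5.33 ± 0.176), VIM (170.0 ± 83.8), CSF1R (0.68 ± 0.322) and VWF (0.44 ± 0.396) in the same order. Replicate 3 stood apart: mitochondrial genes took 4.25, 4.01 and 10.6% of TPM in replicates 1, 2 and 3, and the common biological coefficient of variation (edgeR) was 0.188 with all libraries and 0.12 without replicate 3.

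Sequence around the members bears on how their values are read. Among the RefSeq promoter windows used here, BDNF (chromosome 11, 27654893 to 27722030 on GRCh38.p14, minus strand) has 5 separate transcription starts. The deposited value is 1 per gene, over the 17 transcripts listed for it. Whether those transcripts cover each of the 5 starts was not checked. The bases just upstream of 3 of these starts are shown 5′ to 3′ on the minus strand, from RefSeq on GRCh38.p14. The 1 value of the gene does not tell the starts apart. Capitals mark CGTCA or its reverse complement TGACG, the core of the element bound by the activity-regulated factor CREB.
BDNF start farthest upstream, chr11:27722031-27722150: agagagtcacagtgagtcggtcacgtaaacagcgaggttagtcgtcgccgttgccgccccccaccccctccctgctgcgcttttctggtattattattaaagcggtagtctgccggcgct
BDNF start with the core, chr11:27701622-27701741: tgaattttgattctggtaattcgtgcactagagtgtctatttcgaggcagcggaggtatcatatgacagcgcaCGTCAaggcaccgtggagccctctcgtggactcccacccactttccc
BDNF start farthest downstream, chr11:27659659-27659778: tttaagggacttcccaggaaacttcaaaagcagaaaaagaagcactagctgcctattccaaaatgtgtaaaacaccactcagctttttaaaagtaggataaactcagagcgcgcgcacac
Of the 5 BDNF starts, 1 had this core within 250 bases upstream, at position -47 from the start site. Over all 35116 RefSeq windows of that length 21.2% had it on either strand, and the palindrome TGACGTCA, which contains the core on both strands, was in 1.65%. Among the other members with a window, 1 of 4 NTRK2 starts had the core, and the windows of NTF3, NTF4, NTRK3 and SORT1 did not have these letters. A match describes the letters only.

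NTF4 (chromosome 19, 49058284 to 49065035, minus strand) lies beside 3 pseudogene copies, NTF6A, NTF6B and NTF6G, which bears on whether its few reads could be placed. The last 90 coding bases of NTF4 (coding bases 541 to 630, from the GENCODE release 29 transcript on GRCh38, minus strand) are shown 5′ to 3′ with the aligned bases of each copy, with capitals where the copy differs from NTF4.
NTF4: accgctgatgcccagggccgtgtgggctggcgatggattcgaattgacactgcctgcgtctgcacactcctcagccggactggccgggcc
NTF6A: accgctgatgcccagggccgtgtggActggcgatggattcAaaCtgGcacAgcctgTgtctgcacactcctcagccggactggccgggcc
NTF6B: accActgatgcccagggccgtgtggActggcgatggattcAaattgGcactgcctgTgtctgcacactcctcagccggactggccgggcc
NTF6G: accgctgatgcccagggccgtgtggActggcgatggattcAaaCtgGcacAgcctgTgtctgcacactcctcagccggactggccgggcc
Over the aligned length NTF6A, NTF6B and NTF6G were 89.0, 88.3 and 87.9% identical to the NTF4 coding sequence, and the longest run without a difference was 64, 33 and 64 bases. The reads were 151 bases long and paired. No library gave a count for any of the 3 copies. A floor of 3 counts, taken as the limit that a count of 0 allows, is 0.073, 0.0499 and 0.0864 CPM (counts over the library's total count, without length correction) in replicates 1, 2 and 3, counting error only. NTF4 itself had 19, 47.04 and 11.73 estimated counts, which are not all whole, and no overlapping gene was found whose fractions completed them.

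The ligand genes were low. BDNF, whose product is the main ligand of TrkB, was at 1.59, 2.01 and 2.66 TPM in replicates 1, 2 and 3, a mean of 2.09 ± 0.539 (SD, n = 3). That was above 1 TPM by 0.96 ± 0.25 (SE) on the log2(TPM + 0.1) scale (limma, adjusted p = 0.0081), lowest in replicate 1 and highest in replicate 3. NTF4, another TrkB ligand, was at 1.02, 1.28 and 0.75 TPM, on both sides of the bar, and was undecided (limma, adjusted p = 0.986). NTF3, the ligand of TrkC, was at 0.14, 0.25 and 0.13 TPM and was below the bar (limma, adjusted p = 0.00135).

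The depth behind the ligand values was small for 2 of the 3 genes. Rounded to whole numbers, BDNF had 135, 231 and 190 counts in replicates 1, 2 and 3. These are 3.29 CPM (95% exact Clopper-Pearson interval 2.76 to 3.89), 3.84 (3.36 to 4.37) and 5.47 (4.72 to 6.31). The intervals of replicates 1 and 3 did not overlap. They cover counting error only, and neither the division of reads with BDNF-AS nor the spread between libraries, which exceeded counting error over all genes. NTF4 had 19, 47 and 12 counts, with intervals of 0.278 to 0.722, 0.575 to 1.04 and 0.179 to 0.604 CPM that overlapped from library to library. NTF3 had 3, 6 and 2 counts, near the limit of what these libraries can show, and its intervals overlapped as well (0.0151 to 0.213, 0.0366 to 0.217 and 0.00697 to 0.208 CPM).

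BDNF shared reads with its antisense gene. BDNF-AS, a long noncoding RNA gene on the opposite strand (chromosome 11, 27506852 to 27698171), overlaps BDNF. BDNF had 135.27, 231.11 and 189.61 estimated counts in replicates 1, 2 and 3, and BDNF-AS had 119.73, 159.89 and 103.39. Neither gene had whole counts, but their sums were whole in every library (255, 391 and 293, within 0.015), as when reads that match both genes are divided between them. The library kit keeps strand, but the sources used here do not say whether the counting used it, so sense and antisense reads may not have been told apart. BDNF-AS was at 5.33, 4.09 and 4.29 TPM (4.57 ± 0.666, limma adjusted p = 1.03e-05 against the bar). BDNF was lower than BDNF-AS by a log2 TPM ratio of -1.11 ± 0.52 (-1.68, -0.99 and -0.67), but on CPM, which is not divided by length, BDNF was higher in every library, with a log2 ratio of 0.51 ± 0.34. The length by which counts were divided was 3948 to 4044 bases for BDNF and 1068 to 1371 for BDNF-AS. The CPM order carries this difference of length, so it does not compare numbers of transcripts. The TPM order still rests on how shared reads were divided.

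The Trk receptor genes were higher than every ligand gene in every library. NTRK2 (chromosome 9, 84668522 to 85027054, plus strand) encodes TrkB, with forms that carry the kinase domain and forms that lack it. It was at 45.3, 59.1 and 62.5 TPM in replicates 1, 2 and 3, the highest of the 8 genes, and its mean of 55.6 ± 9.1 exceeded that of 79.9% of the 17804 protein-coding genes with any TPM. It was above the bar by 5.65 ± 0.11 (SE) on the log2 scale (limma, adjusted p = 9.04e-10). NTRK3 (chromosome 15, 87859751 to 88256739, minus strand), which encodes TrkC, was at 11.1, 14.1 and 18.8 TPM (limma, adjusted p = 1.28e-07). As with BDNF, both Trk genes were lowest in replicate 1 and highest in replicate 3 on TPM. NTRK2 exceeded NTRK3 by a log2 ratio of 1.93 ± 0.18 (2.02, 2.06 and 1.73), in 3 of 3 libraries.

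NTRK2 is also a gene of astrocytes, where the form without a kinase domain is common, and gene-level values do not separate the forms. The summed TPM of the 8 astrocyte markers was 73.6, 81.7 and 50.2 in replicates 1, 2 and 3, of which SLC1A2 alone gave 66.0, 76.1 and 42.7 TPM. Of the other astrocyte markers S100B was at 2.21, 1.6 and 2.51 TPM and SOX9 at 1.49, 1.56 and 2.78, both above the bar and highest in replicate 3. SLC1A3 was at 2.1, 0.69 and 0.53 TPM. GFAP was at 0.81, 0.8 and 0.86 TPM, AQP4 at 0.88, 0.83 and 0.81, GJA1 at 0.07, 0.03 and 0.05 and ALDH1L1 at 0.07, 0.08 and 0.04. All but SLC1A2 are printed outside the naming rule, to give the whole list. The part of astrocytes in the NTRK2 values was not tested. In bulk RNA, fewer cells of a type and less RNA per cell cannot be told apart.

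NGFR was the lowest of the receptor genes. It encodes p75, a receptor of the TNF receptor family, and lies on chromosome 17 (49495293 to 49515008, plus strand). NGFR was at 9.06, 8.3 and 6.33 TPM in replicates 1, 2 and 3 (7.9 ± 1.41, limma adjusted p = 6.51e-07 against the bar), lowest in replicate 3. Its antisense gene NGFR-AS1 had no count in any library, which the same floor of 3 counts limits to 0.073, 0.0499 and 0.0864 CPM. The counts of NGFR were not whole, and with an unnamed gene on the opposite strand they summed to 641, 796 and 383, so a few reads were divided there too. The Trk pair exceeded NGFR by a log2 ratio of 3.14 ± 0.52 (2.63, 3.13 and 3.66). NGFR also marks neural crest and Schwann cells. The summed TPM of the 6 markers of those cells was 7.23, 7.17 and 7.14, and the members did not move together. ERBB3 was at 2.94, 2.88 and 1.25 TPM and SOX10 at 0.85, 0.44 and 0.02, both lowest in replicate 3 as NGFR was. S100B, also on this list, was highest in replicate 3. FOXD3 was at 0.0, 0.03 and 0.02 TPM. All of these but ERBB3 were chosen after their values were seen, and the other markers of the list are not reported here. The part of such cells in the NGFR values was not tested.

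The VPS10 receptor genes were the most even of the set. SORT1 (chromosome 1, 109309575 to 109397918, minus strand) encodes sortilin, which partners p75 and also sorts BDNF inside the cell. SORT1 was at 32.4, 37.7 and 32.9 TPM in replicates 1, 2 and 3 (34.3 ± 2.9, limma adjusted p = 7.29e-10). SORCS2 (chromosome 4, 7192538 to 7742827, plus strand), a sortilin relative that binds p75 as well, was at 17.5, 16.9 and 19.1 TPM (17.8 ± 1.13, limma adjusted p = 4.79e-09). The coefficients of variation of their TPM over the 3 libraries were 8.45% and 6.35%, and those of the other 6 members lay between 16.4% (NTRK2) and 38.4% (NTF3). Over the 15837 genes above 1 TPM the median was 13.2% with quartiles of 7.83 and 21.3%. SORT1 exceeded SORCS2 by a log2 ratio of 0.94 ± 0.19 and NGFR by 2.12 ± 0.27, each in 3 of 3 libraries.

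Of the 8 genes 6 were above 1 TPM, 1 was below and 1 was undecided. Over all 38992 genes with any TPM 40.6% were above and 45.1% below (limma, adjusted p under 0.05), and over the 17804 protein-coding genes 71.2% were above and 19.9% below. The count of members above the bar was thus near the share for coding genes in general, while the members ranged from a level exceeding 13.4% of detected coding genes (NTF3) to one exceeding 79.9% (NTRK2). In order of mean TPM the genes were NTRK2, SORT1, SORCS2, NTRK3, NGFR, BDNF, NTF4 and NTF3. Of the 7 pairs of neighbours in that order 4 differed in 3 of 3 libraries by a mean log2 ratio over 2 SD. The other 3 pairs, SORCS2 and NTRK3 (0.31 ± 0.31), NTRK3 and NGFR (0.87 ± 0.64) and BDNF and NTF4 (0.97 ± 0.63), kept a sign but were within 2 SD of 0. NTRK3 exceeded NGFR by over 2 SD on CPM (2.34 ± 0.51) and without replicate 1 (1.16 ± 0.57), and on CPM 6 pairs of neighbours were called. On CPM NTRK3 was above SORCS2 (log2 ratio of SORCS2 to NTRK3 -0.54 ± 0.3).

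**Figure D1:**
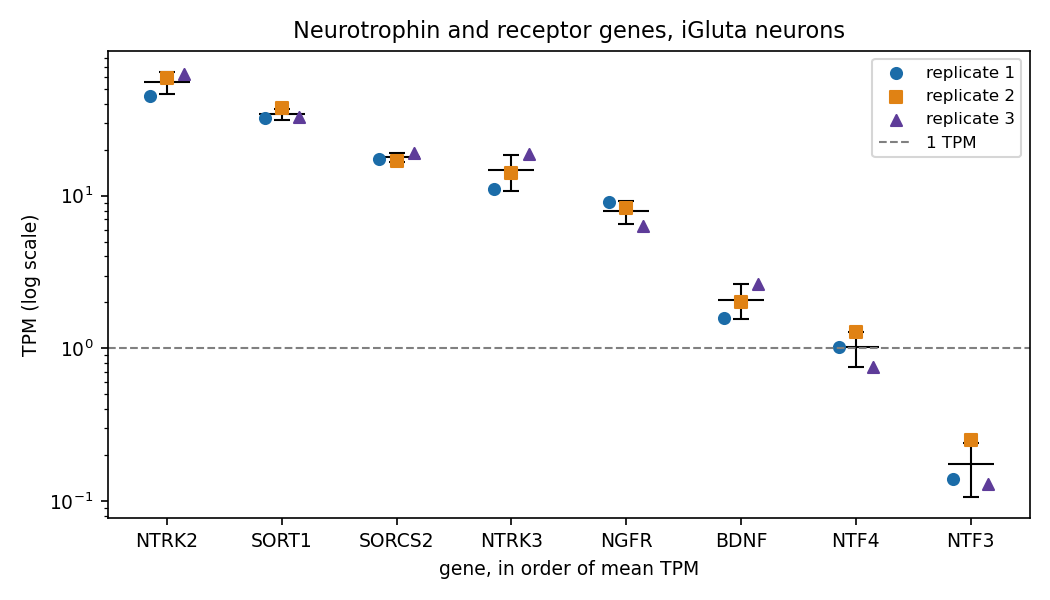
TPM of the 8 genes in each of the 3 iGluta libraries on a log axis, with the mean (long bar) and SD (whiskers) over the libraries and a dashed line at 1 TPM. All 5 receptor genes lie above the line in every library, BDNF just above it, NTF4 on both sides and NTF3 below.

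Ligand genes were then set against receptor genes within each library. The 3 ligand genes summed to 2.75, 3.54 and 3.54 TPM in replicates 1, 2 and 3, and the 5 receptor genes to 115.4, 136.1 and 139.6 TPM. Receptors exceeded ligands 38.7-fold at the mean, with log2 ratios of ligands to receptors of -5.34, -5.23 and -5.26 (-5.28 ± 0.06 SD, n = 3, exact 2-sided sign-flip permutation p = 0.25). With 3 libraries 0.25 is the smallest p this test can give, also after Benjamini-Hochberg adjustment over the 11 ratios computed. A ratio was therefore called when it had the same sign in 3 of 3 libraries and its mean was over 2 SD from 0, which held here. On CPM the ratio was -6.58 ± 0.15, and with all counts of BDNF-AS given to BDNF, an alternative chosen after seeing the data, it was -4.77 ± 0.01. The opposite division, with shared reads given to BDNF-AS, was not run. BDNF against the bar was not rerun under either division.

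BDNF and NTF3 were also compared with the receptor each is known for. BDNF was below NTRK2 by log2 ratios of -4.75, -4.81 and -4.5 (-4.69 ± 0.16), and NTF3 was below NTRK3 by -5.55, -5.34 and -6.36 (-5.75 ± 0.54), a ratio that rests on the 2 to 6 counts of NTF3. Against the Trk pair alone the ligand sum stood at -4.37 ± 0.09. All 3 ratios were called.

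Among the ligands BDNF made up 57.8, 56.8 and 75.1% of the summed TPM in replicates 1, 2 and 3, and NTF4 37.1, 36.2 and 21.2%. BDNF exceeded NTF3 by a log2 ratio of 3.0 ± 0.52, which was called. Its ratio to NTF4 was 0.97 ± 0.63 (0.59, 0.61 and 1.7), which was not called. The last ratio changed with the setting. It was 2.81 ± 0.78 on CPM, 0.6 ± 0.01 without replicate 3, and 1.71 ± 0.53 with the counts of BDNF-AS added, and under each of these it was called.

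Among the receptors NTRK2 made up 39.3, 43.5 and 44.7% of the summed TPM in replicates 1, 2 and 3, SORT1 28.1, 27.7 and 23.6% and SORCS2 15.1, 12.4 and 13.7%. NTRK3 took 9.65, 10.3 and 13.5% and NGFR 7.85, 6.1 and 4.54%. The Trk genes together were at 56.4, 73.2 and 81.3 TPM, and NGFR with the VPS10 genes at 59.0, 62.9 and 58.3 TPM. The Trk sum was thus below the other sum in replicate 1 and above it in replicates 2 and 3.

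**Figure D2:**
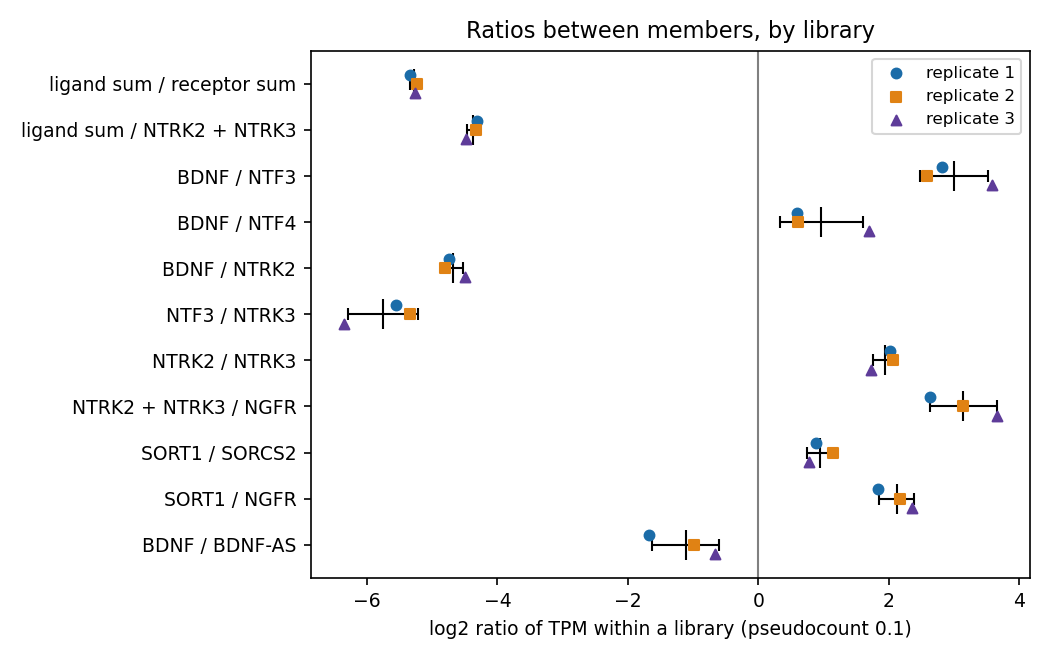
Log2 ratios of TPM between members within each of the 3 libraries (points) with the mean and SD, and a grey line at 0. Ligands against receptors lie near -5.28 in every library, while BDNF against NTF4 spreads from 0.59 to 1.7.

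The members differed in how they moved between libraries. Replicate 3 against the mean of replicates 1 and 2 gave a log2 TPM difference of 0.54 for BDNF, 0.57 for NTRK3, 0.26 for NTRK2, 0.15 for SORCS2, -0.09 for SORT1, -0.36 for NTF3, -0.45 for NGFR and -0.56 for NTF4. The median over the 15837 genes above 1 TPM was -0.13. Relative to that shift BDNF, both Trk genes and SORCS2 stood higher in replicate 3, NTF3, NGFR and NTF4 lower, and SORT1 close to it. The median absolute difference over the same genes was 0.22, near the value of NTRK2 and larger than those of SORCS2 and SORT1. On CPM NTRK3 was at 75.5 in replicate 2 and 73.8 in replicate 3, so its TPM difference also carries the length correction. The same holds for SORCS2, which on CPM was lowest in replicate 3 (46.3, 46.5 and 44.5 in replicates 1, 2 and 3). On the counts the tagwise biological coefficient of variation (edgeR) was 0.26 for BDNF and 0.297 for NTF4, above the median of 0.177 over 19089 genes. It was 0.155 for NTRK2, 0.156 for NTRK3, 0.178 for NGFR, 0.11 for SORT1 and 0.115 for SORCS2. NTF3 was too low to be kept in that fit. The summed TPM of the 6 progenitor markers was 248.3, 251.6 and 404.4 in replicates 1, 2 and 3, of which VIM gave 123.4, 119.8 and 266.7 and NES 38.1, 43.9 and 88.5 TPM. PAX6 was at 84.5, 85.5 and 46.8 TPM and SOX2 at 0.74, 1.27 and 0.57, both lowest in replicate 3. HES1 was at 0.03, 0.1 and 0.38 TPM and HES5 at 1.64, 1.07 and 1.46. All but VIM were chosen after their values were seen. The part of these markers and of the mitochondrial share in the member values was not tested.

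**Figure D3:**
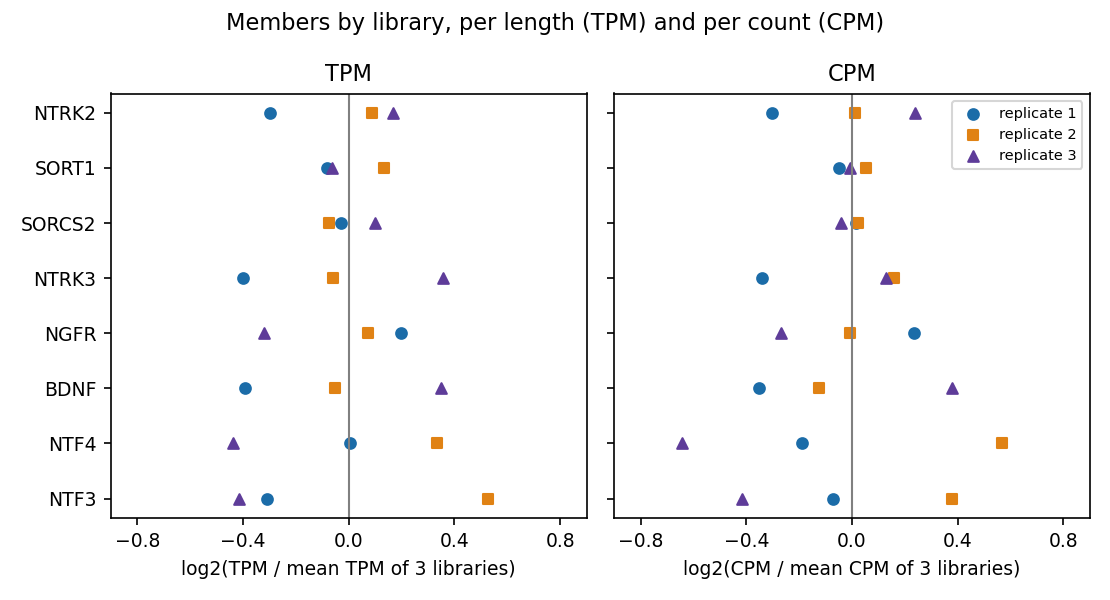
Log2 of each library's TPM (left) and CPM (right) over the mean of the 3 libraries, for the 8 genes, with a grey line at 0. BDNF is highest in replicate 3 on both scales, and NTRK3 is highest in replicate 3 on TPM (18.8) but not on CPM, where replicate 2 is at 75.5 and replicate 3 at 73.8.

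The length by which counts were divided also differed between libraries. The length implied by counts and TPM, scaled on 14 genes with a single transcript, was 9356, 11307 and 7549 bases for NTRK3 in replicates 1, 2 and 3, a range of 1.5-fold. Over 13276 genes with at least 1 TPM and 100 counts in every library the median range was 1.06-fold and the 90th percentile 1.22-fold. NTRK3 was at 53.3, 75.5 and 73.8 CPM, so replicates 2 and 3 were close on counts and apart on TPM. SORCS2 had implied lengths of 5172, 5786 and 4475 bases (1.29-fold), and on CPM it was at 46.3, 46.5 and 44.5. NTF4 ranged from 866 to 1289 bases (1.49-fold) on its 12 to 47 counts. The lengths of the other members with at least 100 counts were steadier, at 1.04-fold for NTRK2 (7614 to 7925 bases), 1.02 for BDNF (3948 to 4044), 1.01 for NGFR (3331 to 3357) and 1.0 for SORT1 (7014 to 7044).

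The implied length is an average over a gene's transcripts as the authors' software weighted them. For NTRK2 it lay within the 3708 to 8633 bases of the coding transcripts in GENCODE release 29, nearer the long end in every library. For NTRK3 it lay within 257 to 19984 bases, and BDNF, NGFR and SORCS2 also lay within their ranges. NTF3 (842 to 1018 bases) lay below its 1028 to 1336 in every library. NTF4 at 1289 bases in replicate 2 exceeded its 813 to 932, and SORT1 at 7044 in replicates 1 and 3 exceeded its longest, 7028. The deposited data list 58 transcripts for NTRK2 and 19 for NTRK3, against 8 and 14 coding ones in that release. These ranges are thus not those of the transcripts that were weighted. The implied length does not separate forms with and without the kinase domain. No transcript-level values were used here.

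**Figure D4:**
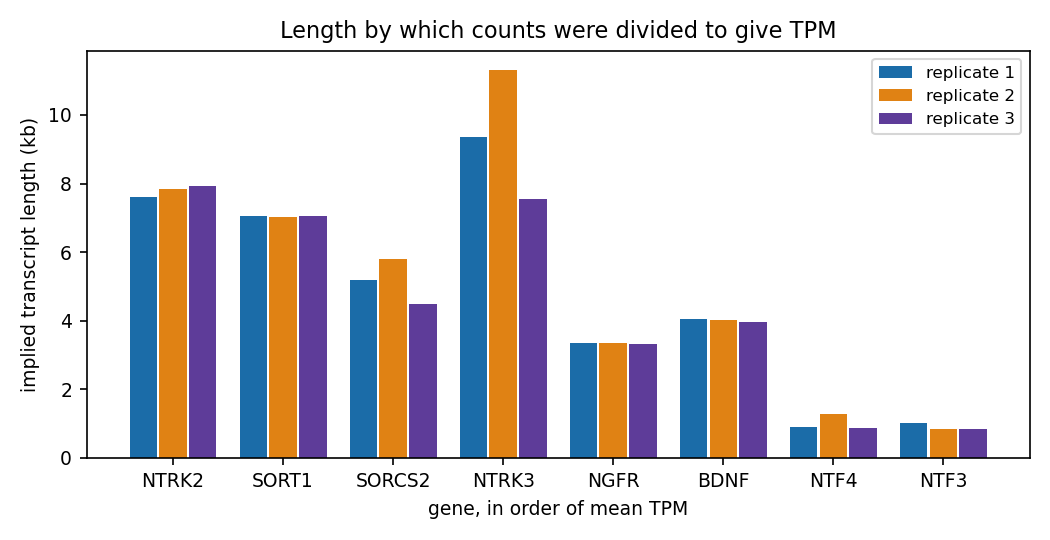
Implied transcript length in kb for the 8 genes in each library. NTRK3, NTF4 and SORCS2 spread over 1.5, 1.49 and 1.29-fold, and SORT1, NGFR, BDNF and NTRK2 by 1.04-fold or less.

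Other genes of the sortilin family were present as well. The VPS10 genes SORCS3 (24.1 ± 4.1 TPM), SORCS1 (12.1 ± 3.18) and SORL1 (5.05 ± 1.94) were above the bar. The antisense gene NTRK3-AS1 was at 0.04, 0.06 and 0.17 TPM, 1 or 2 counts per library.

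The machinery around these genes was mostly detected. Of 149 pathway genes other than the members 129 (86.6%) were above 1 TPM, 7 below, 7 undecided and 6 at 0 (limma), against 71.2% above among protein-coding genes. Without the antisense genes and copies it was 128 of 143, with a median of mean TPM of 32.6.

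Precursor processing, the step that turns proneurotrophin into mature ligand, was the most mixed list, with 9 of 17 genes above the bar, 3 below, 3 undecided and 2 at 0. The share above it was 52.9%, less than the 71.2% of protein-coding genes. The highest were CPE (561.1 ± 34.9 TPM), which encodes a carboxypeptidase of the regulated secretory pathway, the prohormone convertase gene PCSK1 (298.5 ± 94.5) and SERPINI1 (82.4 ± 10.3), which encodes neuroserpin, an inhibitor of tissue plasminogen activator. FURIN, the convertase of the Golgi, was at 15.1 ± 3.16 TPM. PLG (plasminogen) was at 0.187 ± 0.0451 and MMP9 at 0.183 ± 0.0503 TPM, both below the bar (limma, adjusted p = 0.00164 and 0.00157), and MMP7 listed at 0.

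Signal transduction genes were above the bar throughout the lists used, as were 71.2% of protein-coding genes. All 26 Trk adaptor genes were above it, from GAB1 (2.16 ± 0.0208 TPM) to KIDINS220 (256.3 ± 47.9), a scaffold that binds Trk receptors and p75, with GRB2 (177.5 ± 25.6) and SHC2 (154.9 ± 29.7) next. All 24 genes of the Ras, MAP kinase and PI3 kinase branches were above it, from RPS6KA5 (2.87 ± 0.421) to MAP2K2 (187.7 ± 21.6), HRAS (162.6 ± 10.3) and RPS6KA2 (155.7 ± 13.0). All 22 p75 partners and receptor-cleaving proteases were above it, from RIPK2 (3.43 ± 1.21) to BEX1 (1217.2 ± 49.1), BEX3 (853.3 ± 23.5) and MAGED1 (696.2 ± 61.8), which encode proteins that bind the inner part of p75. Leading p75 partner genes thus stood far above NGFR itself on TPM.

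Of 18 genes that traffic or restrain Trk receptors 17 were above the bar and LRIG3 (0.23, 0.02 and 0.0 TPM) was below. The highest were the receptor phosphatase genes PTPRS (216.7 ± 18.8 TPM), PTPRO (161.3 ± 13.5) and PTPRF (122.8 ± 18.2). Of 12 regulators of the BDNF gene 9 were above, led by HDAC2 (300.0 ± 27.1), USF2 (212.0 ± 9.61) and ARNT2 (98.7 ± 13.0), and REST, the repressor of neuronal genes, was below (0.107 ± 0.0611, limma adjusted p = 0.000332).

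Of 19 genes that respond to Trk signaling 17 (89.5%) were above the bar, against 71.2% of protein-coding genes. VGF, a secreted neuropeptide precursor induced by neurotrophins, was at 1331 ± 188.5 TPM, DUSP4 at 217.6 ± 26.3 and DUSP6 at 125.8 ± 1.2, both phosphatases of MAP kinases. EGR2, an immediate early gene, was at 0.02, 0.02 and 0.46 TPM and below the bar (limma, adjusted p = 0.00244), highest in replicate 3. The median log2 difference of replicate 3 from the others over this list was 0.29, against -0.13 over genes above 1 TPM. BDNF had 0.54 by the same measure. Of the genes named from this list VGF had 0.29, SPRY2 0.22, DUSP6 -0.02, HOMER1 -0.17 and DUSP4 -0.27. EGR2, on 1 to 23 counts per library, had 2.22. The rest are printed outside the naming rule, to give the whole list. DUSP1 had 1.51 on 2196 to 5131 counts per library, and EGR1 1.43 on 1367 to 3113. EGR3 had 0.88, EGR4 0.67, JUNB 0.51, ARC 0.47, SPRED2 0.33, SPRY4 0.32 and SPRY1 0.26. DUSP5 had 0.23, FOS 0.14, SPRED1 0.11 and NR4A1 -0.16. The medians of the other pathway lists ran from -0.28 (Trk trafficking and control) to 0.36 (family genes other than the members). The progenitor markers had 0.61. What underlies these differences was not tested. No stimulated samples were compared, and other signals also induce these genes.

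**Figure D5:**
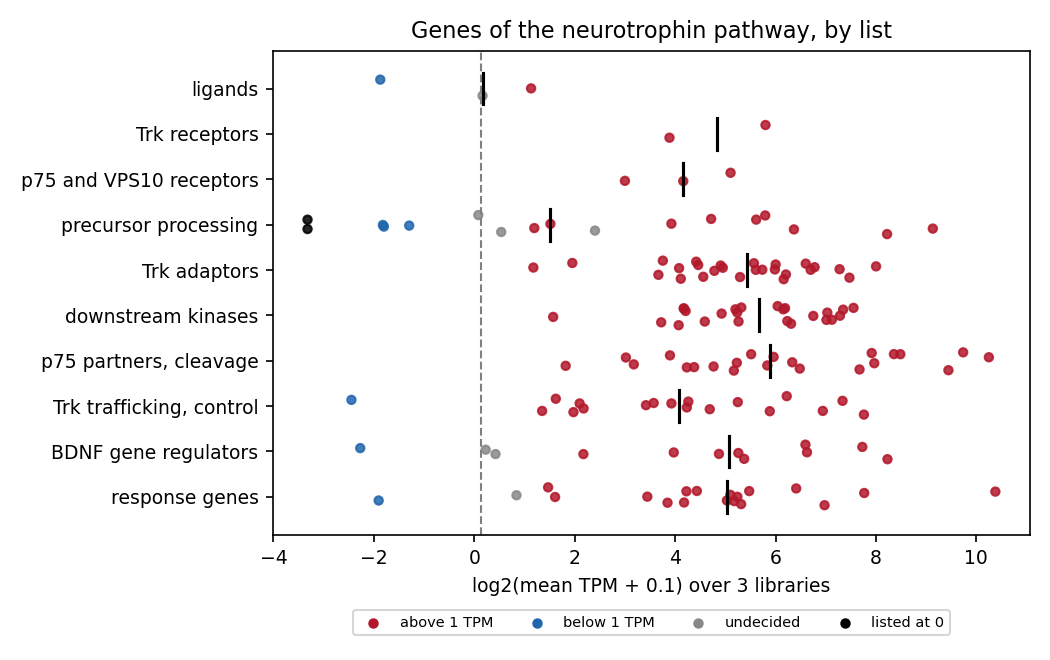
Log2(mean TPM + 0.1) of each pathway gene by list, with the calls against 1 TPM (dashed line). Adaptor, kinase and p75 partner genes all lie above the line, and precursor processing genes on both sides.

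The pathway genes closest in level to each member, by distance of log2(TPM + 0.1) over the 3 libraries, were EHD4 for BDNF (distance 0.41), PLG for NTF3 (0.8), CADPS2 for NTF4 (0.37), HAP1 for NTRK2 (0.34), FURIN for NTRK3 (0.26), TRAF6 for NGFR (0.5), HOMER1 for SORT1 (0.17) and SPRY2 for SORCS2 (0.11). The next closest were GAB1, MMP9, TCF4, NCSTN, IRAK1, TNFRSF19, NRAS and MAP2K5 in the same order. These are likenesses of level over 3 libraries of 1 group.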

How the data were processed

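RNA was measured in 3 samples of 1 group. Per the labels' protocols, polyadenylated, DNase-treated RNA was made into strand-specific libraries and sequenced as paired reads of 151 bases. The authors deposited estimated counts and TPM for 78932 genes. Per the submitters' processing notes RSEM and the build GRCh38.p14 were used. The aligner, annotation release and strand setting were not given in the sources used here. TPM is a share of the library, and estimated counts may be fractions, since a read matching more than 1 gene is divided among them.

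From these, levels were tested against 1 TPM with limma 3.58.1 in R 4.3.3 on log2(TPM + 0.1), where changes of low genes are understated. The fit was intercept-only, with eBayes trend, 2-sided, with Benjamini-Hochberg adjustment over 38992 genes with any TPM. An adjusted p under 0.05 made a gene above or below, and others were undecided. Ratios used the same pseudocount. The spread came from edgeR 4.0.16 on counts rounded to whole numbers (TMM, filterByExpr). Both steps were tested on simulated data. CPM is the count over the library total. Low counts have 95% Clopper-Pearson intervals, and intervals and floors cover counting error only. Libraries differed by a chi-square per degree of freedom of 22.5 to 63.5, so none was deposited in duplicate. Positions and promoter windows come from RefSeq on GRCh38.p14.

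The members and lists were chosen with earlier results of these data known. Named genes are the members, the 3 highest and the lowest of each pathway list, the antisense genes and copies, genes of the ratios, the 2 pathway genes nearest each member in level, and the highest of each marker list. Alternatives were other pseudocounts, bars, filters and scalings, DESeq2 1.42.0 size factors, and each library left out. Some genes of the lists are counted but not reported here.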

Additional observations from a re-analysis of the deposited data

How the results depend on the processing

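Of the results that answer a comparison, 105 values under the alternatives were kept and 6 were not. A ratio was kept when its direction and side of the threshold stayed. Counts of genes or pairs and the coefficient of variation were kept when within a set fold range of the main value. Such a count could change and still be kept, as the called pairs of neighbours did, from 4 to 6 on CPM. BDNF against NTF4 (0.97, not called) was called on CPM (2.81) and with the counts of BDNF-AS given to BDNF (1.71), and ranged from 0.6 (without replicate 3, called) to 1.16 with 1 library left out. BDNF against BDNF-AS (-1.11) reversed on CPM (0.51), which does not divide by length, and ranged from -1.34 to -0.83 with 1 library left out, losing the call without replicate 2 (-1.18). The biological coefficient of variation (0.188) ranged from 0.12 to 0.218 with 1 library left out. Among single genes and pairs, SORCS2 against NTRK3 (0.31) reversed on CPM (-0.54). NTF4 against the bar (-0.01) turned positive with a pseudocount of 1 (0.0 after rounding), a bar of 0.5 TPM (0.87), mitochondrial genes left out of the scaling (0.08) and without replicate 3 (0.18), and ran from -0.17 to 0.18 with 1 library left out. NTF4 was called above with the bar of 0.5 TPM (limma, adjusted p = 0.0402), and below with a bar of 2 TPM (adjusted p = 0.0262) or of 1 CPM (adjusted p = 0.0122). BDNF was undecided with a bar of 2 TPM (limma, adjusted p = 0.915), and its other adjusted p-values ran from 8.33e-11 to 0.0396. The causes were not tested, except for 2 changes that follow by construction. A lower bar moves values up, and CPM, not divided by length, raises longer genes against shorter ones. From 5 to 7 members and 121 to 134 pathway genes were above the bar under the alternatives run. Ligands against receptors ranged from -6.58 to -4.77 and was called in each. With a minimum mean count of 10, NTF3 was not fitted and has no value. No paired analysis was possible because the samples form 1 group. The count of NTF3 limits what can be said of it, since 2 to 6 counts per library leave wide intervals.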
